A study of Homo sapiens with 8 samples.

Results

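The genes described here build, sense, move and export cholesterol and fatty acids, 31 in all, listed by symbol as enzymes of cholesterol synthesis, SREBP regulators, fatty acid enzymes and targets of the liver X receptor. By Ensembl identifier, 30 of the 31 were found among the 34618 genes of the deposited tables, and all 30 passed the filter on low counts that kept 15286 genes. ACACA was not matched and was not analysed here. The RNA came from THP1, an acute monocytic leukaemia line. Cells of 4 libraries carried an empty vector (MOCK). Those of the other 4 carried the iRxI/AxA mutant and have RRM2 OE in their names (RRM2_OE below), RRM2 being a subunit of ribonucleotide reductase, the enzyme that supplies deoxynucleotides. Both groups received doxycycline at 2 µg/mL, so neither group shows cells without the drug. The labels name neither the promoter of the construct nor the number of clones, nor do they say if the replicates are cultures grown apart. The p-values therefore reflect the spread among these libraries alone, which may be technical.

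Cholesterol is made in the cytosol and endoplasmic reticulum from acetyl-CoA, first through mevalonate to farnesyl diphosphate, then through squalene and lanosterol to the finished sterol. The same acetyl-CoA, released from citrate, feeds fatty acid synthesis and desaturation. Both branches are switched on by the SREBP transcription factors, which SCAP carries out of the endoplasmic reticulum when sterols are low and which INSIG proteins hold back when sterols are high. When sterols accumulate, oxysterols activate the liver X receptor, and genes of cholesterol export, prominent in monocytes and macrophages, are induced.

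Library totals ran from 10994255 to 11686152 counts, and the lowest count of any of the 30 genes in any library was 17, for CYP51A1. RRM2 itself was at 123 ± 5.35 CPM (a gene's reads relative to the TMM-scaled library total; mean ± SD, n = 4) in MOCK and 225 ± 8.33 CPM in RRM2_OE. Of 11 monocyte and myeloid markers, 10 could be tested, and 5 were higher and 1 lower in RRM2_OE, the latter being MPO. The summed level of the 11 was 3654 to 3837 CPM in MOCK and 3530 to 3560 CPM in RRM2_OE. That sum joins opposite moves, as mean LYZ rose from 1705 to 2197 CPM and mean MPO fell from 1225 to 466 CPM. Of 7 T and NK markers, 4 were higher and 3 stayed under 1 CPM in all libraries (sums of 109 to 116 CPM and 150 to 162 CPM). Of 5 erythroid markers, 3 were lower (sums of 149 to 167 CPM and 109 to 118 CPM), and of 5 B cell markers 1 was higher (sums of 6.72 to 10.3 CPM and 10.2 to 12.5 CPM). All 7 epithelial, fibroblast and hepatocyte markers stayed under 1 CPM, with KRT19 at 0 in every library. The part of these marker changes in the results below was not tested, and in bulk RNA fewer cells of a type and less RNA per cell cannot be told apart. Replicates 1 and 3 (odd numbers) of each group stood apart from replicates 2 and 4 (even numbers) across all genes, which the labels do not explain. Results are therefore also given with replicate number as a block where that changes a call. Among the markers, the block added CD33 to the higher and KLF1 to the lower ones.

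The fatty acid enzymes FASN and SCD fell by 24.0% and 21.7% in the RRM2_OE libraries, and the sterol regulators SREBF1, SREBF2 and INSIG1 and the squalene branch enzymes FDFT1 and LSS fell by 9.57% to 15.1%. In all, 7 of the 30 genes were lower and 0 higher at an adjusted p below 0.05 (edgeR's quasi-likelihood test, Benjamini-Hochberg adjustment over all genes). Across all genes tested, 5.42% were lower and 7.41% were higher. DESeq2 and limma-voom likewise gave 7 lower and 0 higher. Over all genes DESeq2 gave 742 lower and 1023 higher, and limma-voom 818 and 1115. At an unadjusted p under 0.05 edgeR gave 12 lower and 2 higher. No share of all genes at that threshold is given here, so nothing is read from these counts. The log2 fold change was negative for 24 of the 30 genes, against 50.6% of all genes tested, and its median was -0.11 against -0.00 over all genes. In 9 of the 30 genes every RRM2_OE library lay below every MOCK library, and in 1 gene, ABCG1, every one lay above, against 8.89% and 10.5% of all genes.

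With replicate number as a block in the fit, 14 of the 30 genes were lower and 1 was higher, against 14.0% and 15.1% of all genes. The 7 genes added to the lower calls were HMGCS1, MVK, PMVK, CYP51A1, MSMO1, DHCR7 and SCAP, and the 1 higher was IDI1. Without the block, leaving out MOCK replicate 3 or RRM2_OE replicate 4 left 4 genes lower. Leaving out MOCK replicate 1 lost FDFT1, SREBF1, SREBF2 and INSIG1, while HMGCS1 and PMVK newly passed. Only FASN, SCD and LSS kept their calls whichever library was left out.

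**Figure D1:**
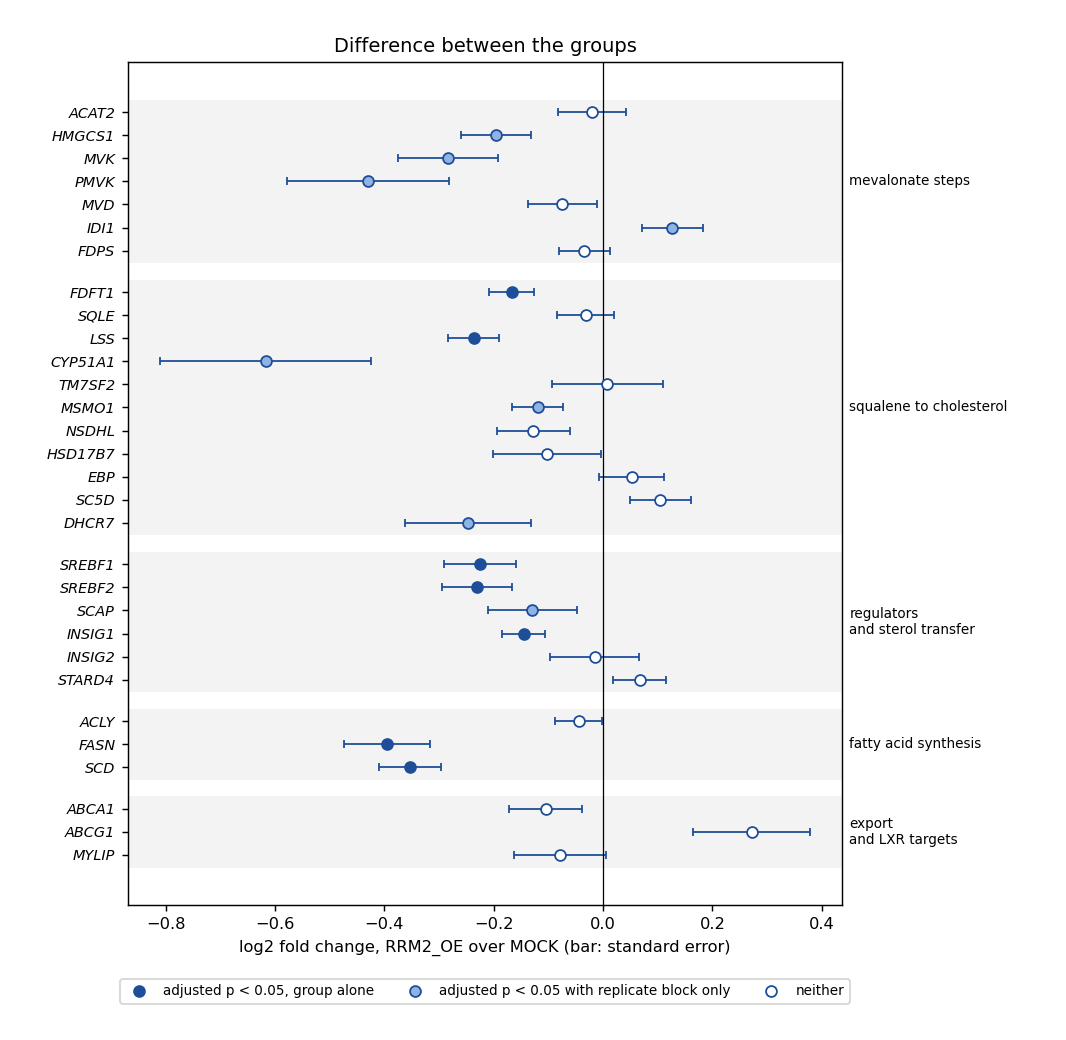
Log2 fold change of RRM2_OE over MOCK for each of the 30 genes by role (points, with bars for 1 standard error); dark points passed the test without a block, light points only with the replicate block. Of the 30 points, 24 lie left of 0, with FASN and SCD the leftmost dark ones.

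Of the 3 measured enzymes of fatty acid synthesis, 2 fell. FASN, the multi-domain synthase that makes palmitate, was measured at 283, 241, 281 and 236 CPM in MOCK replicates 1 to 4 and at 213, 179, 215 and 185 CPM in RRM2_OE replicates 1 to 4. All 4 RRM2_OE libraries lay below all 4 MOCK libraries, and within each group replicates 1 and 3 lay above replicates 2 and 4. The log2 fold change was -0.40 (SE 0.08, adjusted p = 0.00709), with -0.40 among the odd and -0.39 among the even libraries. FASN (ENSG00000169710) spans 80036214 to 80056208 on chromosome 17 of hg19, the build of the deposited coordinates per the submitters' processing notes.

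SCD, the desaturase that turns stearate into oleate, was at 433, 386, 431 and 385 CPM in MOCK and at 327, 306, 341 and 306 CPM in RRM2_OE. The groups were again separate, with the odd-numbered libraries of each group the higher ones. The log2 fold change was -0.35 (SE 0.06, adjusted p = 0.0015), the smallest adjusted p of the 30 genes. SCD (ENSG00000099194) lies on chromosome 10 from 102106881 to 102124591. ACLY, which releases acetyl-CoA from citrate for both branches, gave 260 ± 8.22 CPM in MOCK and 252 ± 6.31 CPM in RRM2_OE (mean ± SD, n = 4), with overlapping groups (log2 fold change -0.04, SE 0.04, adjusted p = 0.566). The calls of FASN and SCD remained on leaving out any single library (largest adjusted p of 0.0242 and 0.00767).

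Of 6 regulators and sterol transfer genes, 3 fell, namely both SREBP genes and INSIG1. SREBF2, whose product chiefly drives cholesterol genes, was at 254, 236, 263 and 230 CPM in MOCK and at 229, 189, 219 and 202 CPM in RRM2_OE. The highest RRM2_OE library, replicate 1, lay just under the lowest MOCK library, replicate 4. The log2 fold change was -0.23 (SE 0.06, adjusted p = 0.0331). SREBF1, whose products chiefly drive fatty acid genes, was at 101, 88.0, 97.6 and 90.5 CPM in MOCK and at 86.1, 75.2, 86.6 and 74.4 CPM in RRM2_OE. The groups did not overlap, and the log2 fold change was -0.23 (SE 0.07, adjusted p = 0.0397).

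INSIG1, the retention factor that is itself an SREBP target, was at 258, 251, 255 and 249 CPM in MOCK and at 225, 228, 232 and 231 CPM in RRM2_OE. This was a small difference between narrow groups (log2 fold change -0.15, SE 0.04, adjusted p = 0.0296). INSIG2, its less regulated relative, gave 26.3 ± 2.65 CPM in MOCK and 26.0 ± 1.55 CPM in RRM2_OE (mean ± SD, n = 4), with a log2 fold change of -0.02 (SE 0.08, adjusted p = 0.935). SCAP, the escort of the SREBPs, gave a log2 fold change of -0.13 (SE 0.08, adjusted p = 0.35) and was lower with the replicate block (adjusted p = 0.00527). STARD4, a cytosolic sterol transfer protein, gave 0.07 (SE 0.05, adjusted p = 0.43).

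The 3 calls among the regulators did not all hold with 1 library fewer, although the log2 fold changes stayed negative, at -0.27 to -0.18 for SREBF2, -0.26 to -0.19 for SREBF1 and -0.17 to -0.12 for INSIG1 over all alternatives. SREBF2 no longer passed without MOCK replicate 1, MOCK replicate 3, RRM2_OE replicate 2 or RRM2_OE replicate 4 (adjusted p up to 0.0984), SREBF1 without MOCK replicate 1, 3 or 4 or RRM2_OE replicate 2 or 4 (up to 0.108), and INSIG1 without any library but MOCK replicate 4 (up to 0.081). SREBF1 (ENSG00000072310) spans 17713713 to 17740325 on chromosome 17, opposite RAI1, SREBF2 (ENSG00000198911) spans 42229109 to 42303312 on chromosome 22, opposite SREBF2-AS1, and INSIG1 (ENSG00000186480) spans 155089486 to 155101945 on chromosome 7.

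Promoters are shown for 4 of the genes that fell, because the SREBPs are known to bind a sterol regulatory element together with the CCAAT-binding factor NF-Y beside it. Of the 5 genes that fell and had a window to search, these 4 held a match to at least 1 motif. Binding was not measured, and whether these sequences take part in the falls was not tested. The promoters of FASN and FDFT1 were not analysed here. The sequences are from RefSeq (GRCh38.p14) and run from 250 bases before to 50 bases after the annotated start, 5′ to 3′ on the gene's strand. Capitals mark each match, on either strand, of 3 motifs. They are the sterol regulatory element, TCACNCCAC, the CCAAT box, named by its letters, and the E-box, CACGTG, which SREBPs can also bind.
SREBF2 promoter, chr22:41832855-41833154, plus strand: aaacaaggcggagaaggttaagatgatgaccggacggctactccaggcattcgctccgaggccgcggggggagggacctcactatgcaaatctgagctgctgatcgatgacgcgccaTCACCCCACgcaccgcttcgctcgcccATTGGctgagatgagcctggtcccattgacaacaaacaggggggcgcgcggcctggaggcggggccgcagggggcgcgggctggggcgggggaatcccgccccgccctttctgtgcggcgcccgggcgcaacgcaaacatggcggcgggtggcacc
SCD promoter, chr10:100346983-100347282, plus strand: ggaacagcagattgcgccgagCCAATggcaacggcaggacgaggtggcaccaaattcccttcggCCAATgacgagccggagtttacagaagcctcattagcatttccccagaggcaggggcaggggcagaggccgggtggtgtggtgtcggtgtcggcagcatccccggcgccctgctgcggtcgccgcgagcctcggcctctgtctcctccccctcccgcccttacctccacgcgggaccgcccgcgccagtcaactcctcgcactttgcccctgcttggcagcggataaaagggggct
LSS promoter, chr21:46228725-46229024, minus strand: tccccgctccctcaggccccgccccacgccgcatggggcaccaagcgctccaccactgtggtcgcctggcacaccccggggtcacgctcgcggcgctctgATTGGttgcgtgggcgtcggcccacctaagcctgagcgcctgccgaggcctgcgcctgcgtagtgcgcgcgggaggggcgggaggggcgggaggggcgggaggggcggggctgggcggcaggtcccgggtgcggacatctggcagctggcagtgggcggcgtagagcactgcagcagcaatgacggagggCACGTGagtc
INSIG1 promoter, chr7:155297628-155297927, plus strand: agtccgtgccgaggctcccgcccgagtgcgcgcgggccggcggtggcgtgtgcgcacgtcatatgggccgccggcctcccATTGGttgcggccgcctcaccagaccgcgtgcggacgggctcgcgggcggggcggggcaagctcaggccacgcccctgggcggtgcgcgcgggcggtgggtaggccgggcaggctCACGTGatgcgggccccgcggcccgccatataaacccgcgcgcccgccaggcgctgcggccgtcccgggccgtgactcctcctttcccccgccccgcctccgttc

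The SREBF2 window held the sterol regulatory element TCACCCCAC, 133 to 125 bases before the start, followed by a CCAAT box in reverse orientation 106 to 102 bases before it. It was the only one of the 35 windows of these genes (26 genes in the table, ACACA among them) with that element, which occurs in 1.13% of all 35116 promoter windows. SCD carried 2 forward CCAAT boxes. LSS and INSIG1 each carried a reverse CCAAT box and an E-box, the one of LSS downstream of the start. The CCAAT box was found in 24 of the 35 windows (68.6%, against 34.6% of all windows). The E-box was found in 6 of the 35 windows (17.1%, against 7.26% of all). By gene these were 20 and 5 of the 26, for which no share of all genes is given here. Some genes had several windows, and the overlapping windows of SC5D share an E-box. The SREBF1 window held none of the 3 sequences, which says only that these letters are not in that window. No match overlapped another in the windows shown. CCAAT boxes were also found in genes that did not pass the test, among them MVD, FDPS, EBP and STARD4.

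Of 11 enzymes from squalene to cholesterol, 2 fell. LSS, the cyclase that folds squalene epoxide into lanosterol, was at 88.4, 83.7, 84.3 and 82.5 CPM in MOCK and at 68.6, 73.0, 73.6 and 72.4 CPM in RRM2_OE. The groups lay well apart (log2 fold change -0.24, SE 0.05, adjusted p = 0.00588), and the call remained on leaving out any single library (largest adjusted p of 0.0216). LSS (ENSG00000160285) spans 47608055 to 47648738 on chromosome 21 and overlaps a gene without a symbol on the same strand. FDFT1, the squalene synthase that commits farnesyl diphosphate to sterols, was at 224, 213, 210 and 219 CPM in MOCK and at 193, 195, 190 and 195 CPM in RRM2_OE. No library of one group reached the other (log2 fold change -0.17, SE 0.04, adjusted p = 0.0183), but the call was lost without MOCK replicate 1 or RRM2_OE replicate 3 (adjusted p up to 0.0536), while the log2 fold change stayed between -0.19 and -0.15 over all alternatives.

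SQLE, the epoxidase that acts between these enzymes and a control point of the pathway, did not pass. It was at 165, 153, 170 and 160 CPM in MOCK and at 155, 152, 172 and 155 CPM in RRM2_OE, with overlapping groups (log2 fold change -0.03, SE 0.05, adjusted p = 0.76). Whether SQLE differs from LSS or FDFT1 in its response was not tested.

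Among the enzymes that act after lanosterol, the largest difference had the lowest counts. CYP51A1, the lanosterol demethylase, was at 3.61, 3.36, 2.78 and 3.05 CPM in MOCK and at 2.09, 2.70, 2.08 and 1.47 CPM in RRM2_OE, without overlap (log2 fold change -0.62, SE 0.19, adjusted p = 0.0529). It passed with the replicate block (adjusted p = 0.0161) and without RRM2_OE replicate 2 (adjusted p = 0.0325). Its span overlaps LRRD1 on the same strand and CYP51A1-AS1 on the other, and how reads in such overlaps were counted is not given in the sources used here.

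MSMO1, the C4-methyl oxidase, also had separate groups, at 98.3 to 107 CPM in MOCK and 89.6 to 96.0 CPM in RRM2_OE (log2 fold change -0.12, SE 0.05, adjusted p = 0.117, or adjusted p = 0.0124 with the replicate block). DHCR7, the last reductase, was at 77.6, 68.9, 84.1 and 66.4 CPM in MOCK and at 75.3, 56.8, 66.8 and 51.4 CPM in RRM2_OE. Its even-numbered libraries were the low ones in both groups, and the log2 fold change of -0.25 (SE 0.12, adjusted p = 0.2) passed with the replicate block (adjusted p = 1.13e-04). The remaining 5 gave log2 fold changes between -0.13 and 0.11, all with overlapping groups: the C4 decarboxylase NSDHL at -0.13, the 3-keto reductase HSD17B7 at -0.10, the reductase TM7SF2 at 0.01, the isomerase EBP at 0.05 and the desaturase SC5D at 0.11. TM7SF2 overlaps VPS51 on the same strand.

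None of the 7 enzymes of the mevalonate steps passed without the block (0 of 7 by edgeR, DESeq2 and limma-voom). At an unadjusted p under 0.05 edgeR gave 3 lower and 1 higher, again without a share of all genes to set beside them. HMGCS1, the synthase that makes HMG-CoA, was at 103, 122, 111 and 119 CPM in MOCK and at 95.5, 106, 91.3 and 104 CPM in RRM2_OE. The groups overlapped, and replicates 1 and 3 were the low ones of each (log2 fold change -0.20, SE 0.06, adjusted p = 0.0657, or adjusted p = 9e-05 with the replicate block). PMVK, the second mevalonate kinase, was at 10.5, 13.9, 11.8 and 16.0 CPM in MOCK and at 8.27, 11.3, 8.23 and 10.9 CPM in RRM2_OE. Its log2 fold change was -0.43 (SE 0.15, adjusted p = 0.0794, or adjusted p = 7.28e-04 with the block), and the same odd and even pattern lay across both groups.

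MVK, the first kinase, gave a log2 fold change of -0.28 (SE 0.09, adjusted p = 0.0621, or adjusted p = 0.0138 with the block). It was -0.13 among the odd and -0.45 among the even libraries, with the lowest interaction p of the 30 genes (unadjusted p = 0.0556, adjusted p = 1, edgeR). IDI1, the isomerase that makes dimethylallyl diphosphate, had the other sign. It was at 98.8, 106, 97.8 and 108 CPM in MOCK and at 107, 119, 105 and 117 CPM in RRM2_OE (log2 fold change 0.13, SE 0.06, adjusted p = 0.163, or adjusted p = 0.00563 with the block). The thiolase ACAT2 (-0.02), the decarboxylase MVD (-0.07) and the prenyl synthase FDPS (-0.03) had overlapping groups and did not pass with or without the block. Leaving out 1 library brought 3 of these enzymes past the threshold: HMGCS1 (adjusted p = 0.0303) and PMVK (adjusted p = 0.0397) without MOCK replicate 1, and MVK (adjusted p = 0.0444) without RRM2_OE replicate 1.

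The 3 export and liver X receptor targets did not pass (0 of 3 by edgeR, DESeq2 and limma-voom). At an unadjusted p under 0.05 edgeR gave 1 higher, again without a share of all genes to set beside it. ABCG1, which hands cholesterol to high-density lipoprotein, was at 6.16, 6.63, 5.46 and 6.46 CPM in MOCK and at 7.83, 7.40, 7.54 and 7.08 CPM in RRM2_OE. All RRM2_OE libraries were above all MOCK libraries, at a low level (log2 fold change 0.27, SE 0.11, adjusted p = 0.118). ABCA1, which loads cholesterol onto apolipoprotein A-I, gave 52.0 ± 1.61 CPM in MOCK and 48.3 ± 4.35 CPM in RRM2_OE (mean ± SD, n = 4; log2 fold change -0.11, SE 0.07, adjusted p = 0.356). MYLIP, the ubiquitin ligase that degrades lipoprotein receptors, gave 24.3 ± 1.13 and 23.0 ± 2.54 CPM (mean ± SD, n = 4; log2 fold change -0.08, SE 0.08, adjusted p = 0.612). The 3 genes therefore had no common sign.

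**Figure D2:**
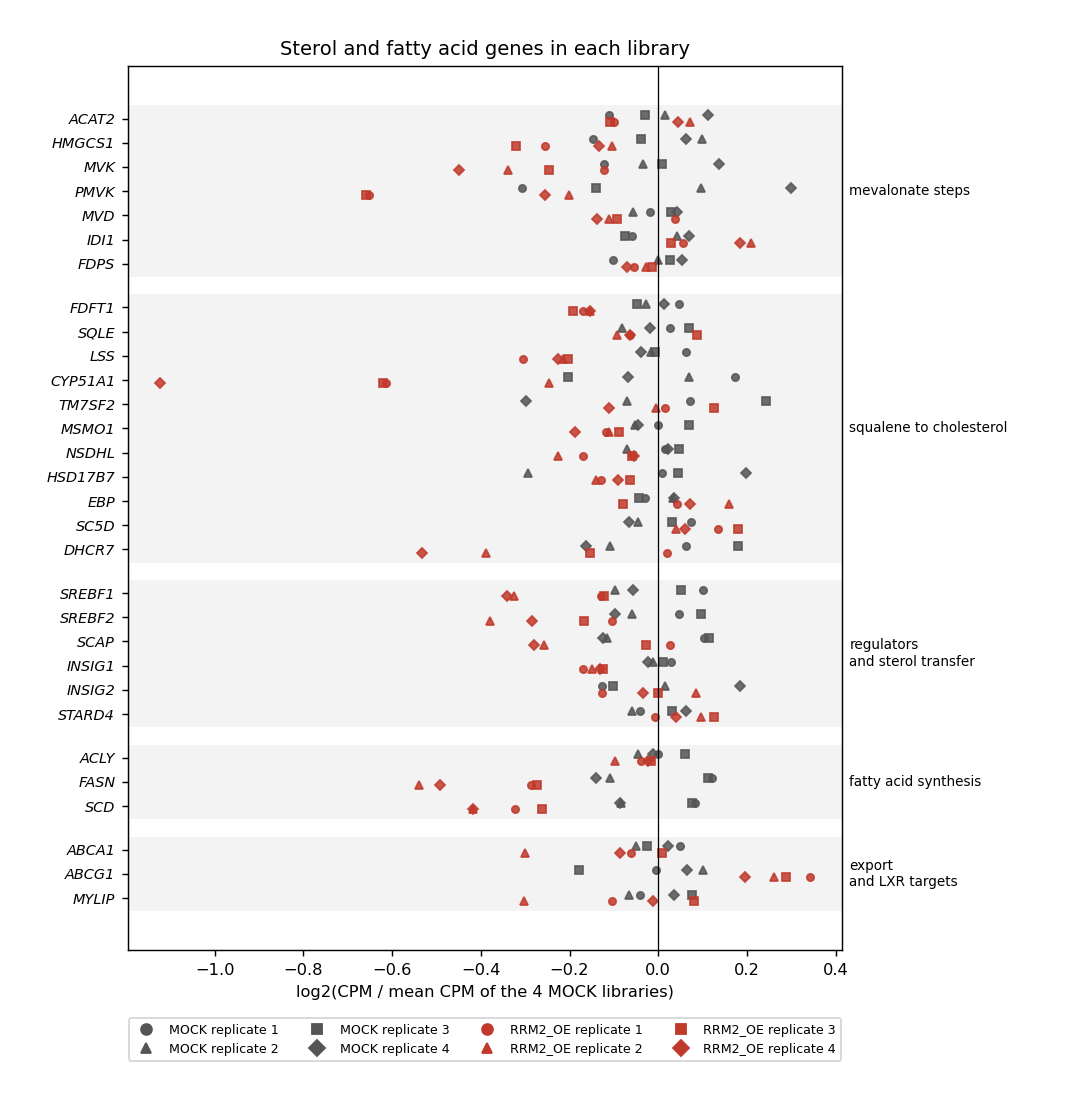
Level of each gene in each library as log2 of its CPM over the MOCK mean, grey for MOCK and red for RRM2_OE, with a symbol per replicate number. The red points of FASN, SCD, LSS and FDFT1 lie left of all grey points, while those of DHCR7 and PMVK mix with the grey ones, and for these 2 genes odd and even replicates separate in both groups.

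The genes of a role were averaged within each library. For fatty acid synthesis the mean log2 ratio to the MOCK mean was -0.22, -0.35, -0.18 and -0.31 in RRM2_OE replicates 1 to 4, and it lay between -0.08 and 0.08 in MOCK. From squalene to cholesterol the RRM2_OE libraries lay between -0.22 and -0.10 and the MOCK libraries between -0.06 and 0.05. Both roles were separate between the groups. The mevalonate steps overlapped, at -0.20 to -0.07 in RRM2_OE and -0.12 to 0.11 in MOCK. Regulators and sterol transfer touched, with the highest RRM2_OE library and the lowest MOCK library both at -0.05. Between libraries of the same number, however, the mean was lower in RRM2_OE in 4 of 4 pairs for each of these 4 roles. The labels do not say that libraries of the same number belong together. Export and liver X receptor targets lay at -0.12 to 0.12 in RRM2_OE around MOCK values of -0.04 to 0.04. These averages describe the libraries and were not tested.

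**Figure D3:**
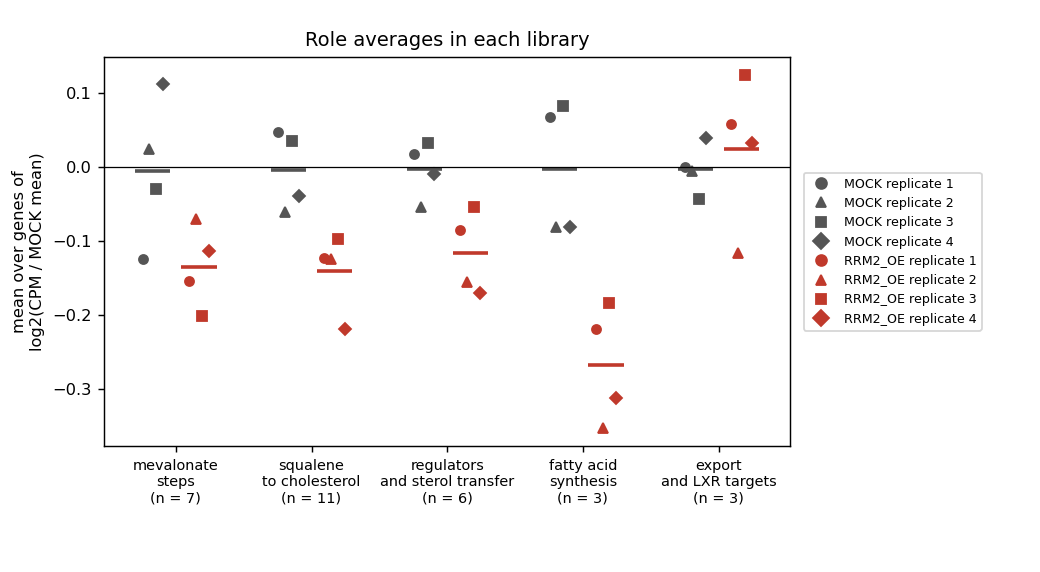
Mean over the genes of a role of log2(CPM / MOCK mean) in each library, with a line at the mean of each group of 4 libraries. Fatty acid synthesis (3 genes) and the squalene branch (11 genes) show separate groups, and the 3 export and liver X receptor targets do not.

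Levels were compared between genes per exon length, as the deposited RPKM. SCD stood highest in MOCK at 75.7 ± 4.30 RPKM (mean ± SD, n = 4), followed by INSIG1 at 69.0 ± 0.636 and ACLY at 49.6 ± 1.82, and the libraries of these 3 did not overlap. In RRM2_OE, SCD at 59.8 RPKM was below INSIG1 at 62.9 RPKM, with overlapping libraries (57.8 to 63.1 and 61.1 to 64.2 RPKM). SREBF2 stood at 32.4 ± 1.82 RPKM in MOCK and SREBF1 at 11.6 ± 0.627 RPKM. FASN, IDI1 and FDPS, at 28.8, 28.4 and 28.3 RPKM, did not differ beyond their spread. CYP51A1 was lowest at 0.780 RPKM, then ABCG1 at 1.00 RPKM and MVK at 3.05 RPKM. The rank of CYP51A1 is uncertain, because its span overlaps LRRD1 on the same strand and how reads there were counted is not given.

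**Figure D4:**
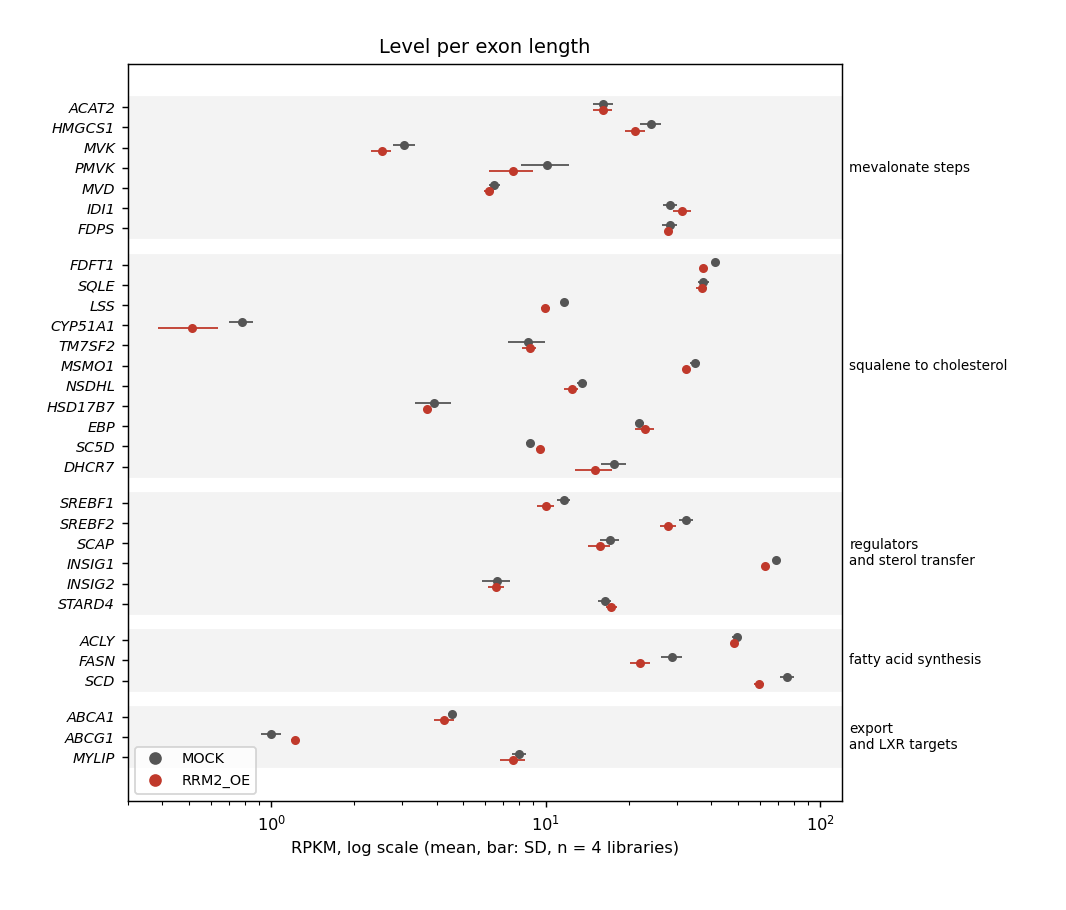
Deposited RPKM of each gene on a log axis, as mean and SD of 4 libraries per group. Measured levels run from 0.780 RPKM for CYP51A1, which overlaps LRRD1 on the same strand, to 75.7 RPKM for SCD in MOCK.

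Differences between odd and even replicate numbers were as large as those between the groups for several genes. In a fit with both terms, 8 of the 30 genes were higher in the odd-numbered libraries, namely DHCR7 (log2 difference 0.32), SCAP (0.24), FASN (0.24), TM7SF2 (0.23), SREBF1 (0.18), SREBF2 (0.17), SCD (0.15) and SQLE (0.10). The 4 lower ones, PMVK (-0.42), HMGCS1 (-0.17), ACAT2 (-0.15) and IDI1 (-0.14), all catalyse mevalonate steps. The background over all genes was 15.4% higher, 15.0% lower and 30.4% in either direction, against 12 of the 30 genes in either direction. The mitochondrial share of counts was 8.02% to 9.51% in the odd-numbered and 6.43% to 7.69% in the even-numbered libraries, and its part in these differences was not tested.

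The group difference was also computed among the odd and among the even libraries. The log2 fold change was negative in both for 22 of the 30 genes, against 38.1% of all genes, and the median of the 30 was -0.12 in each. No gene of the 30 had a group effect that differed between odd and even libraries by an interaction test (0 by edgeR and by DESeq2, adjusted). At an unadjusted p under 0.05 both tests also gave 0 of the 30, against 3.21% of all genes by edgeR and 48 genes by DESeq2. With so few over all genes, 0 of 30 does not set these genes apart. Each combination of group and parity held 2 libraries, and a difference too small for them cannot be told from none.

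**Figure D5:**
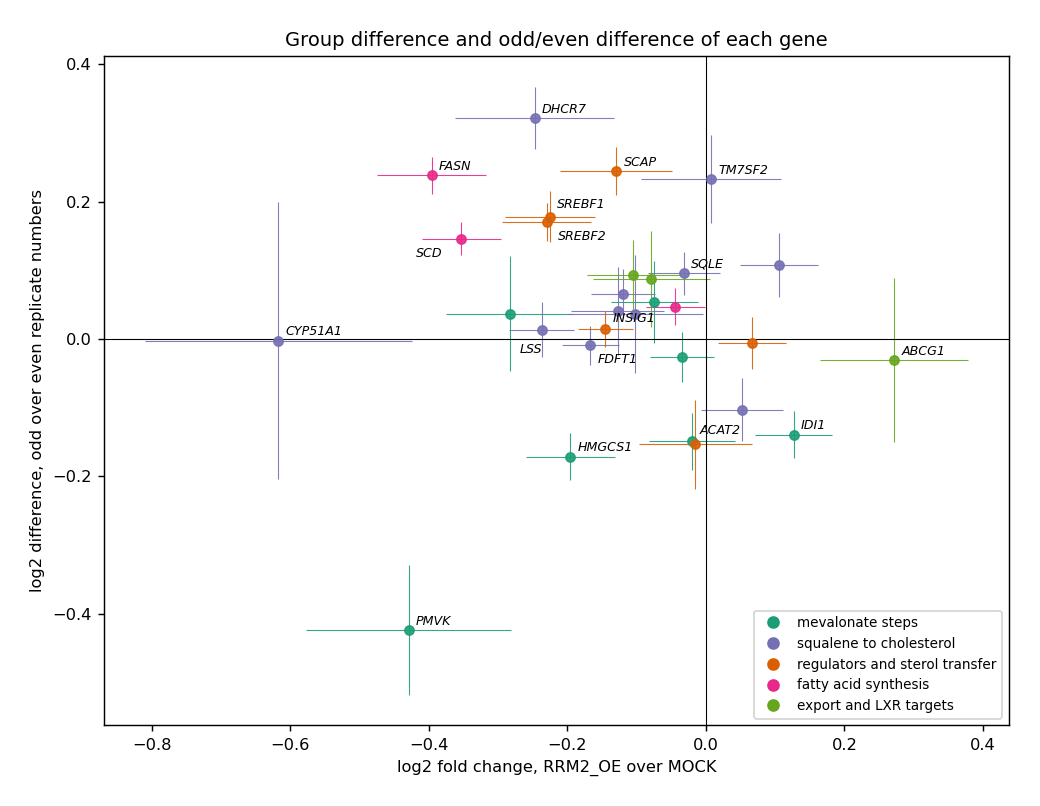
Log2 fold change of RRM2_OE over MOCK (x axis) against the log2 difference of odd over even replicate numbers (y axis) from fits over all genes, with bars for 1 standard error and colours for roles; names are given for genes that passed either test without a block, and for CYP51A1 and ABCG1. FASN, SCD, SREBF1 and SREBF2 lie at the upper left, and PMVK at the lower left.

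Of 49 further genes of sterol handling, fatty acid metabolism and the liver X receptor, 48 were tested, 4 were higher (8.33%) and 3 lower (6.25%), shares near the 7.41% and 5.42% of all genes, and the median log2 fold change was 0.01. ERLIN1, an endoplasmic reticulum protein that takes part in sterol-regulated protein degradation, fell from 165 ± 12.8 to 126 ± 3.88 CPM (mean ± SD, n = 4; log2 fold change -0.39, SE 0.06, adjusted p = 7.29e-04), and its partner ERLIN2 fell by 0.19 on the log2 scale. NCOR1, a corepressor of nuclear receptors, fell by 0.14. ACSL1, an acyl-CoA synthetase, rose from 115 ± 6.99 to 143 ± 7.12 CPM (mean ± SD, n = 4; log2 fold change 0.31, SE 0.05, adjusted p = 0.00253). SOAT1, which esterifies cholesterol for storage, rose by 0.22 on the log2 scale (adjusted p = 0.00531), and the elongation enzyme HACD3 by 0.14. With the replicate block, 9 of the 48 were higher and 10 lower, against 15.1% and 14.0% of all genes.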

How the data were processed

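Stranded poly(A) RNA sequencing of 200 ng total RNA was done per the labels' protocols. Tools named in the submitters' processing notes are HTSeq 0.11.2, TopHat2 and bcl2fastq 2.18.0.12, with the build hg19 (GRCh37). For annotation and strand setting the sources used here give nothing. The deposited count table holds raw read counts per gene, and the authors' deposited RPKM equal counts over exon length and column total. Columns were matched to samples by name and IDs to symbols through a table of current names.

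The group test was edgeR 4.0.16 under R 4.3.3 (filterByExpr, TMM, robust quasi-likelihood F tests, group as the only term). Benjamini-Hochberg adjustment was over 15286 genes, with a threshold of 0.05. Each standard error is the size of the fold change divided by F's square root. The odd/even and interaction fits used the same steps. The fits were tested on simulated data. The members, the further genes and the marker lists were chosen with earlier results of these data known. All members are named and, of the further genes, the called ones with the smallest adjusted p, up to 4 per direction, except 1 that is not reported here.

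Same-numbered libraries of the 2 groups deviated together (correlations of 0.22 to 0.25 over genes, all above 0.1). Libraries sharing only parity did so as much (0.23 to 0.29), so these correlations show no pairing by number beyond parity. Alternatives were DESeq2 1.42.0, limma-voom 3.58.1, other scalings and filters, the block, the odd/even term, the odd or even libraries alone, limma on log2(RPKM + 1) and log2(RPKM + 0.1), stricter thresholds and leaving out each library. Chi-square per degree of freedom between libraries of a group was 1.47 to 12, above sampling noise, so none were merged. A gene on the same strand overlaps 3 of the 30 genes, and 13 have one on the opposite strand.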

Additional observations from a re-analysis of the deposited data

How the results depend on the processing

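The 7 genes that were lower kept their direction in every alternative, and no called gene changed sign. The count of 7 lower and 0 higher was also given by DESeq2, limma-voom, RLE and upper-quartile factors and a filter of 1 CPM in 4 libraries. Over all genes, DESeq2 gave 742 lower and 1023 higher, and limma-voom 818 and 1115. RLE factors gave 854 and 1113, upper-quartile factors 840 and 1109, and the 1 CPM filter 843 and 1113 of 15031 genes. Library sizes alone gave 6 lower (637 over all genes), and no low-count filter gave 9 (906 of the 26786 genes then tested). The replicate block and the odd/even term each gave 14 lower and 1 higher of the 30 genes; over all genes the block gave 2143 lower and 2303 higher, and the odd/even term 2277 and 2427. Replicates 1 and 3 alone gave 11 lower (1330 over all genes), and replicates 2 and 4 alone 12 lower and 1 higher (1224 and 1391 over all genes). These settings remove the odd/even differences from the residual spread. Limma on log2(RPKM + 1) and log2(RPKM + 0.1) each left 3 lower, FASN, SCD and LSS, with 463 lower against 1017 higher and 453 lower against 999 higher over all genes, where the main test gave 829 and 1133; the cause was not tested. An adjusted p of 0.01 left the same 3 genes (281 lower and 530 higher over all genes). A test against a 1.2-fold change (glmTreat) left 0 lower of the 30, and 74 lower and 203 higher over all genes. At an unadjusted p under 0.05 glmTreat gave 3 lower of the 30. No share of all genes is given for it, so nothing is read from that count. Leaving out 1 library gave 4 to 7 lower and 0 higher of the 30, and 542 to 607 lower and 808 to 937 higher over all genes, the lower count moving by over 1.5 times without MOCK replicate 2 (542) or RRM2_OE replicate 1 or 3 (545 each). In the odd/even comparison DESeq2 gave 1506 genes lower in odd-numbered libraries, against 2292, library sizes alone 2944 lower and 1914 higher, against 2360 higher, and the 1.2-fold test gave 204 higher and 124 lower over all genes and 0 and 0 of the 30. Leaving out 1 library there gave 7 to 8 higher and 4 to 5 lower of the 30, for which no counts over all genes are given here. Among the 23 genes not called, 4 changed sign in some alternative. The block changed no call among the 30 genes other than those given in the report. CYP51A1 and ABCG1, the genes with the fewest counts, have the widest standard errors of their roles (0.19 and 0.11).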

Other observations

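The odd and even libraries also differed in lipid genes outside the synthesis list. In the odd-numbered libraries 15 of the 48 further genes tested were higher, and 6 were lower, against 15.4% and 15.0% of all genes. The trans-enoyl reductase TECR (log2 difference 0.46) and the elongase ELOVL1 (0.43) of very long chain synthesis, the late endosomal sterol transporter STARD3 (0.30) and the desaturase FADS2 (0.29) were higher, and the lysosomal lipase LIPA was lower (-0.15). These genes were chosen after their values were seen. TECR gave a log2 fold change of -0.02 and ELOVL1 of 0.10 between RRM2_OE and MOCK, and neither passed that test; ELOVL1 was higher with the replicate block.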
